A study of Mus musculus with 12 samples.

Results

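The histone genes were examined as 42 of the 15848 union peaks of trimethylated histone H3 lysine 4 (H3K4me3) in adult mouse cardiomyocyte (CM) nuclei. They are the autosomal peaks of protein-coding genes whose name in the deposited table begins as a histone gene name does (Hist1h, Hist2h, Hist3h, Hist4h, H2af, H3f3, H1f or the newer forms). The rule uses names and no measured level. Of the 42 peaks, 32 were assigned to replication-dependent genes and 10 to replacement variants.

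The mark was mapped by ChIP–seq in 3 CtrlCre libraries (alphaMHC-Cre pos/+; Cpt1b +/+) and 3 Cpt1bcKO libraries (alphaMHC-Cre pos/+; Cpt1b fl/fl). Both genotypes carry the Cre transgene, whose promoter is active in CMs, and Cpt1b, which encodes the carnitine palmitoyltransferase that muscle needs for mitochondrial fatty acid import, is lost before birth in the Cpt1bcKO CMs. Nuclei were sorted from adult ventricles, and no closer age was given for these animals. The study describes its replicates as biological and, for an analysis that draws on these peaks, as mice. The labels do not themselves tie each library to a mouse, and without that p-values measure the spread between these libraries, which may be technical. The comparison asks where the mark changes when CMs cannot burn fatty acids.

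Recovered counts in peaks ranged from 763133 in CtrlCre replicate 2, the shallowest library by far, to 2766416 in Cpt1bcKO replicate 2. The Cpt1b peak held 407 to 436 normalized counts in CtrlCre and 568 to 689 in Cpt1bcKO libraries, which measures the mark over the gene and not the deletion. Marker genes were matched to peaks by assigned name, not by position. Of the cardiomyocyte markers, 10 of 11 had a peak, and none of the 8 leukocyte markers had one. The summed cardiomyocyte marker level was 8614 to 10445 in CtrlCre and 6505 to 9347 in Cpt1bcKO libraries. The overlap of the sums does not hold for each marker. Actc1 held 858, 723 and 924 in CtrlCre and 487, 605 and 307 in Cpt1bcKO libraries (adjusted p 0.0018 in limma). Of the 10, 3 were lower at an unadjusted p under 0.05 in limma and none higher, beside 6.98% of all tested peaks that were lower. Of the mural markers, Acta2 held 97, 119 and 71 in CtrlCre and 29, 10 and 24 in Cpt1bcKO libraries, while the other 2 with a peak, Myh11 and Kcnj8, summed to 36, 58 and 50 against 35, 26 and 60, which overlapped. Of the fibroblast and endothelial markers only Pdgfra and Kdr had a peak. Pdgfra held 69, 58 and 68 in CtrlCre and 59, 56 and 63 in Cpt1bcKO libraries. Kdr held 39, 91 and 64 against 31, 45 and 51, and the genotypes overlapped at both. The log2 differences were -0.13 (SE 0.18) for Pdgfra and -0.55 (SE 0.26) for Kdr. Kdr had an unadjusted p of 0.0481 and an adjusted p of 0.382 in limma. The part of cell composition in the values below was not tested, and fewer cells with a mark and less of it per cell cannot be told apart.

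Histones package DNA into nucleosomes, made of the core histones H2A, H2B, H3 and H4 and sealed by the linker histone H1. Most copies come from replication-dependent genes, which lie in clusters, lack introns, are transcribed mainly when DNA is replicated and end their mRNAs in a stem-loop in place of a poly(A) tail. Replacement variants are made throughout the cell cycle, and a muscle cell that no longer divides relies on them to renew its chromatin.

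Replication-dependent genes were recognisable by the stem-loop behind their stop codon, which is shown because it divides the 2 classes. In the mouse genome GRCm38 (mm10), 65 of the 67 replication-dependent genes held it within 150 bases of the stop codon. Among the 12 replacement genes it was found only in H2afx, the H2A whose phosphorylation marks broken DNA. The most frequent form occurred in 41 genes, Hist1h1c among them, and the form of Hist1h4j occurred in 2. Capitals mark the paired stem, each read on the strand of its gene, at chr13:23739512-23739527 (Hist1h1c), chr13:21735437-21735452 (Hist1h4j), chr13:21715718-21715733 (Hist1h2bl, minus strand) and chr9:44335240-44335255 (H2afx).
Hist1h1c: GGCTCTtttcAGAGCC
Hist1h4j: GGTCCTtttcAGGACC
Hist1h2bl: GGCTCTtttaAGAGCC
H2afx: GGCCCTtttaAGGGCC

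The promoters differed in their short motifs, searched in the 300 bases around each start that RefSeq (GRCm38.p6) gives, on both strands except for TATAAA, which was read along the gene only. A promoter was matched for 74 of the 80 histone genes. CCAAT, the site of the factor NF-Y, was in 53 of 62 replication-dependent promoters (85.5%) and in 37.4% of all 32851 promoters. It was present in every H1, H2A, H2B and H3 promoter of this class and in 3 of the 12 H4 promoters. ATTTGCAT, the octamer bound by Pou2f1, was in 7 of 18 H2A and 6 of 16 H2B promoters and in no H1, H3 or H4 promoter of the class, against 1.74% of all promoters. TATAAA was in 30 of 62 (48.4%) against 8.32% of all, and an E2F-type site (TTTCCCGC, TTTCGCGC, TTTGCCGC or TTTGGCGC) in 10 of 62 (16.1%) against 2.26%. Of the 11 replacement promoters, 7 held CCAAT, 1 held TATAAA, 1 held ATTTGCAT and none an E2F-type site. Some H2A and H2B genes are transcribed away from each other from nearby starts, so their 300-base windows overlap. The same site can then count for both genes. The octamer upstream of Hist1h2bg, for example, also lay in the window of Hist1h2ae. The H2A and H2B counts of motifs read on both strands are therefore not all of separate sites. A match of letters does not show that a factor was bound.

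Shown here are 120 bases upstream of the start, read along the gene, for 2 genes whose peaks were among the lower ones in Cpt1bcKO (Hist2h2bb and Hist1h2ai, the partner of Hist1h2bl), for the densest linker gene peak (Hist1h1c) and for 2 replacement genes. Capitals mark the motifs, on either strand. The stretches lie at chr3:96269580-96269699 (Hist2h2bb), chr13:21716292-21716411 (Hist1h2ai), chr13:23738687-23738806 (Hist1h1c), chr3:137864367-137864486 (H2afz) and chr11:116024505-116024624 (H3f3b, minus strand).
Hist2h2bb: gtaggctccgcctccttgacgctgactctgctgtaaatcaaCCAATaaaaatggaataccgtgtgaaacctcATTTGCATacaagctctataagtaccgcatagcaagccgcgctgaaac
Hist1h2ai: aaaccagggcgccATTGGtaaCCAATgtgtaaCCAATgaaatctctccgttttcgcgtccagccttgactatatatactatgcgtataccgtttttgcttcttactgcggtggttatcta
Hist1h1c: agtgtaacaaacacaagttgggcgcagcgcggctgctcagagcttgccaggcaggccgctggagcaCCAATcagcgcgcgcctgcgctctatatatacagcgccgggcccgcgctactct
H2afz: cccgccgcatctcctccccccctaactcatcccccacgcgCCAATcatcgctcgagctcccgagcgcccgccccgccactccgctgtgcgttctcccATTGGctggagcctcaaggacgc
H3f3b: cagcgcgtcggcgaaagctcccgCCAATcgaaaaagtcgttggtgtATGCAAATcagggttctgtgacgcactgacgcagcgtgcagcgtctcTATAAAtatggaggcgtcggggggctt

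H3f3b, which encodes the replacement H3, was the 1 replacement promoter with TATAAA and also the 1 with the octamer, here on the opposite strand.

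The name given to a histone peak in the table was often that of another locus. For 21 of the 42 peaks the name was not the symbol that GENCODE vM21 gives for the gene ID on the same line, and 24 names stood for 41 genes. The name Hist1h4a was on 9 peaks, of which 7 lay on chromosome 13. The symbols used here are those of the gene IDs. By position, 24 peaks overlapped 1 histone gene, 16 overlapped 2 or more, of which 3 overlapped 3 genes, and 2 overlapped none. Together they covered 58 histone genes. A peak over several genes gives 1 value that cannot be split among them. The peaks of Hist2h2ac and H1f0 also covered a coding gene that is no histone gene, Bola1 and Gcat.

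In 8 peaks the 2 genes were an H2A and an H2B gene transcribed away from each other, with starts 176 to 302 bases apart. The 26 peaks named for the Hist1 cluster on chromosome 13 spanned 2054 kb and fell into 2 blocks of 10 and 16 peaks, separated by 1482 kb. The Hist2 cluster on chromosome 3 gave 5 peaks, and Hist4h4 on chromosome 6 gave 1. The replacement genes lay singly, apart from H2afj, which lies next to Hist4h4.

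**Figure D1:**
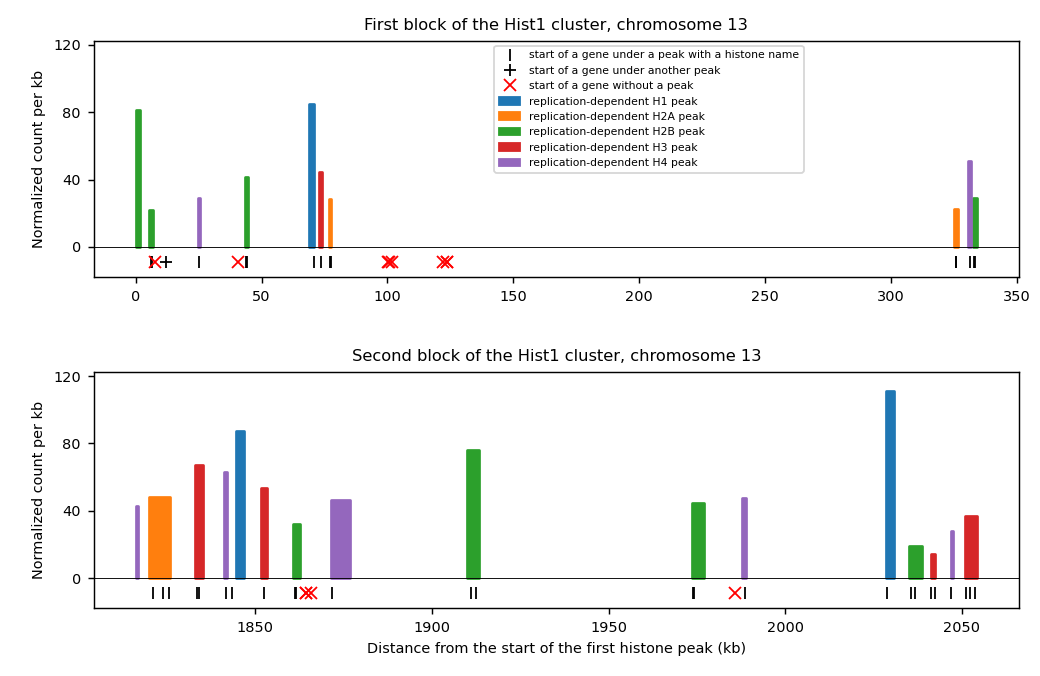
The 2 blocks of the Hist1 cluster, with the distance from the start of its first peak (kb) on the x axis and the mean normalized count per kb of peak over 6 libraries on the y axis. Bars span the peaks and are coloured by the histone family of the assigned gene, and ticks and crosses under the axis mark gene starts. The linker gene peaks Hist1h1b, Hist1h1d and Hist1h1c stand at 84.9, 87.1 and 111 per kb, and genes without a peak gather about 100 kb into the first block. Hist1h2aa and Hist1h2ba lie beyond the right edge.

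Not every histone gene carried a peak. Of the 67 replication-dependent genes, 48 lay under a histone-named peak, 2 lay under another peak and 17 under none. The share of H4 genes under a histone-named peak was 10 of 13, of H3 genes 8 of 12, of H2A genes 13 of 18, of H2B genes 12 of 18 and of H1 genes 5 of 6. All 6 replacement H2A genes and both replacement H3 genes had a peak. H1foo and H1fnt, linker histones of the egg and of the sperm cell, had none.

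Near-identical gene copies matter here, because only reads that align to 1 place were kept by the study. Each position was therefore scored by whether the 75-base word starting there, as long as a read, occurs once in the genome. In the 500 bases on each side of the gene start, the median share of such words was 79.99% for the 48 genes under a histone-named peak and 49.1% for the 17 without one. In 8 genes the share was below 10%, namely Hist1h2ao, Hist1h2ap, Hist1h2bq, Hist1h2br, Hist1h4m, Hist1h4n, Hist2h3c1 and Hist2h3c2, and all 8 lacked a peak. For these the mark was hardly measurable by unique reads, and a missing peak does not show that the gene lacked the mark. The other 9 genes without a peak were at 49.1% or higher. Among them, the germ cell genes Hist1h1t, Hist1h2aa and Hist1h2ba, were at 100%, 100% and 88.7%.

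**Figure D2:**
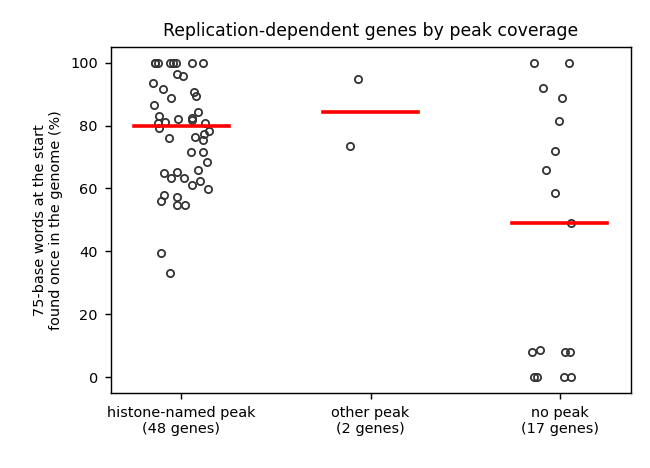
Share of 75-base words found once in the genome within 500 bases of the gene start (y axis, %) for replication-dependent genes under a histone-named peak, under another peak or under none (x axis). Each circle is 1 gene and the red line is the median, at 79.99% for the 48 genes under a histone-named peak and 49.1% for the 17 genes without a peak, of which 8 lie below 10%.

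Uniqueness also went with the level of the peaks that were called. The median share of unique words was 84.1% in the 32 replication-dependent peaks and close to 100% (99.97%) in the 10 replacement peaks. Over all 42 peaks the share correlated with the normalized count per kb at a Spearman rho of 0.67, which is a description over peaks of the same libraries. Levels below are therefore also given per kb of unique words. The median log2 difference, Cpt1bcKO minus CtrlCre, was -0.14 for the 12 peaks under 80% unique words and -0.02 for the other 30. At an unadjusted p under 0.05 in limma were 2 of the 12 and 3 of the 30, beside 12.8% of all tested peaks. The part of uniqueness in the genotype differences was not tested.

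Per kb of peak, replacement genes carried more H3K4me3 than replication-dependent genes. The median was 80.2 normalized counts per kb for the 10 replacement peaks and 44.7 for the 32 replication-dependent peaks, beside 70.9 for the 11017 other autosomal coding peaks. Per kb of unique words the medians were 80.2 and 54.4. Within the replication-dependent class the 3 peaks assigned to linker genes were the densest family, with a median of 87.1 per kb. The medians were 47.4 for H4, 44.6 for H3, 32.3 for H2B and 27.2 for H2A peaks. The linker genes Hist1h1e and Hist1h1a lay under the peaks assigned to Hist1h2be and Hist1h3a, at 76.1 and 36.7 per kb. Those peaks also covered other histone genes. The order of the core families did not hold per kb of unique words, where the medians were 57.2 for H3, 56.8 for H2A, 53.2 for H4 and 43.6 for H2B, with 92.1 for the linker peaks. No test was made of these levels.

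Hist1h1c, the linker histone gene that led its family, held 288, 228 and 284 normalized counts in CtrlCre replicates 1 to 3 and 269, 279 and 262 in Cpt1bcKO replicates 1 to 3 (chr13:23738442-23740851). Its density was 111 ± 13.9 per kb in CtrlCre and 112 ± 3.55 in Cpt1bcKO CMs (SD, n = 3). It was also the widest of the 3 linker peaks, at 2409 bases. Hist1h1b had the lowest mean of the 3, with 163, 193 and 163 in CtrlCre and 191, 192 and 176 in Cpt1bcKO libraries, and the genotypes overlapped for both genes.

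Among core genes the highest mean and the widest peak were those of Hist1h2af (chr13:23529795-23535899), which at 6104 bases also covered Hist1h4h and Hist1h3g. It held 288, 258 and 321 normalized counts in CtrlCre and 288, 317 and 288 in Cpt1bcKO libraries. The lowest mean was that of Hist1h4b (chr13:23756855-23757399), with 11, 23 and 23 in CtrlCre and 12, 8 and 14 in Cpt1bcKO libraries. Both sets of values overlapped between genotypes, and at Hist1h4b they were only a few times the 1.95 to 6.97 that 3 counts are worth.

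**Figure D3:**
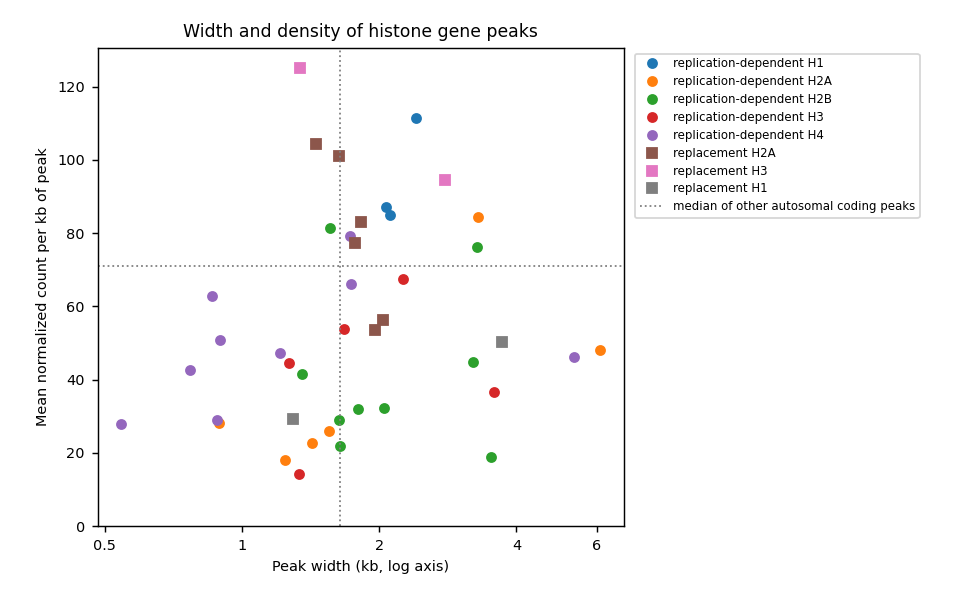
Peak width (x axis, kb, log scale) against the mean normalized count per kb over 6 libraries (y axis) for the 42 histone peaks, coloured by family. Dotted lines are the medians of the 11017 other autosomal coding peaks (1639 bases and 70.9 per kb). Core replication-dependent peaks lie mostly under the horizontal line, the 3 peaks assigned to replication-dependent linker genes and most replacement peaks above it.

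Peak width did not separate the classes. Replication-dependent peaks had a median width of 1657 bases (544 to 6104) and replacement peaks of 1800 bases (1294 to 3727), beside 1639 for other autosomal coding peaks. Replication-dependent H4 peaks were the narrowest, with a median of 894 bases. Peaks over replication-dependent genes were by median 61.4% exonic and 36.8% intergenic, and replacement peaks 72.8% exonic and 16.1% intronic. The gene start lay inside 37 of the 42 peaks. The peaks of H3f3b, Hist1h1d and H2afy stopped short of the gene start in GENCODE vM21 by 3362, 1355 and 178 bases, but the start that RefSeq gives lay inside all 3.

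Between genotypes no histone peak passed the test. With limma on log2(normalized count + 1) and Benjamini-Hochberg adjustment over 15039 peaks, 0 of the 42 had an adjusted p under 0.05, where 2.93% of all tested peaks had one. On limma-voom applied to recovered counts, 2 of the 42 passed, where 503 of all 15039 tested peaks passed. At an unadjusted p under 0.05 there were 5 histone peaks (11.9%), beside 12.8% of all tested peaks. They were 3 lower and 2 higher in Cpt1bcKO, where 6.98% of all peaks were lower and 5.84% higher at that level. No CtrlCre value fell in the Cpt1bcKO range, or the reverse, at 7 of the 42 peaks (16.7%), beside 16.3% of all tested peaks. The share of histone peaks that differed was thus near that of any peaks.

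The median log2 difference over the 42 peaks was -0.03, and 0.01 over all tested peaks. By class it was -0.07 for replication-dependent and 0.00 for replacement peaks. The 95% interval of the difference lay within ±0.5 for 24 of the 42 peaks and within ±1 for 37. Among the 12 peaks with a mean under 50 it lay within ±0.5 for 1 only, so smaller changes at these were not detectable at this depth.

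**Figure D4:**
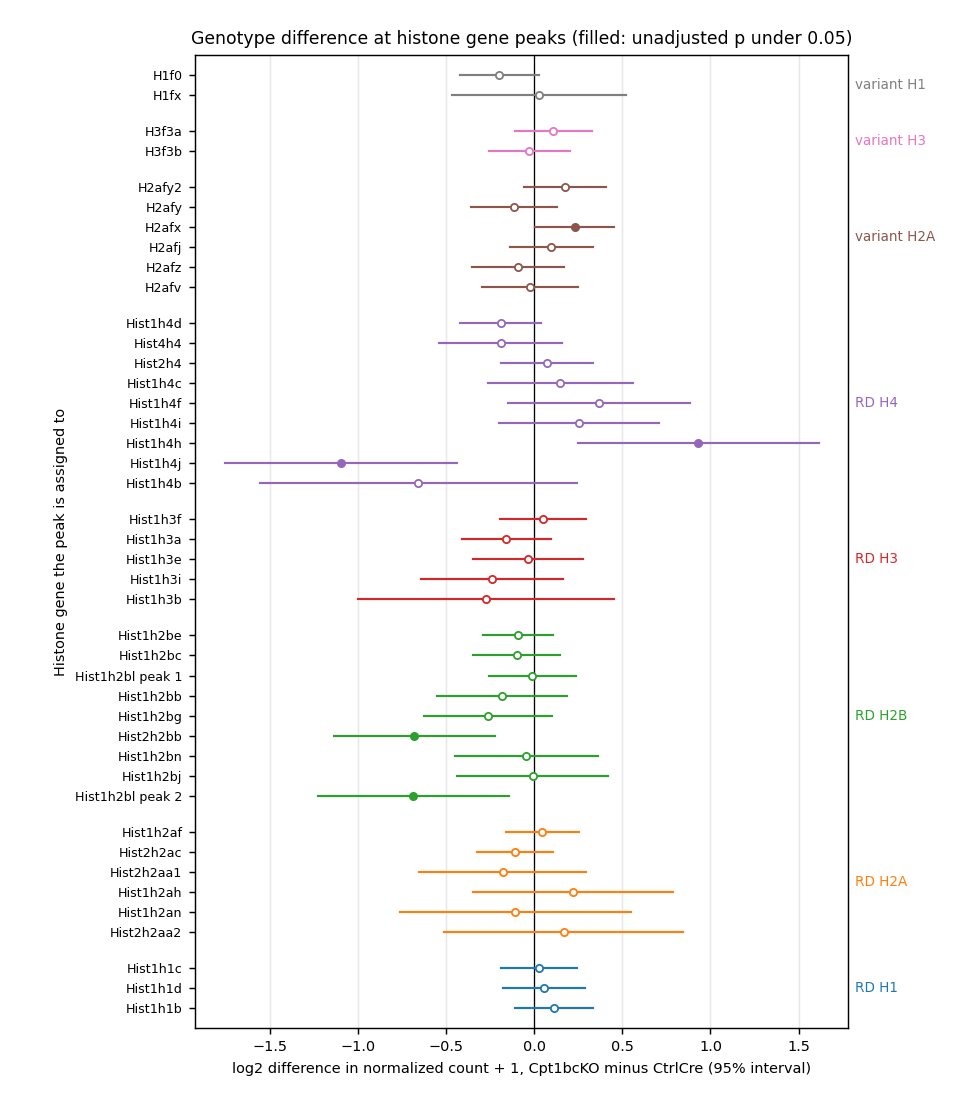
log2 difference in normalized count + 1, Cpt1bcKO minus CtrlCre (x axis), with its 95% interval from limma, for each of the 42 histone peaks (y axis) grouped by family (RD, replication-dependent). Filled points are the 5 peaks with an unadjusted p under 0.05. All 9 peaks assigned to H2B genes lie left of 0, and the widest intervals belong to weak H4, H3 and H2A peaks.

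The largest difference was at Hist1h4j, 1 of the H4 genes of the first Hist1 block (chr13:21734704-21735587). The normalized counts were 32, 40 and 33 in CtrlCre and 18, 18 and 12 in Cpt1bcKO libraries. Every Cpt1bcKO library was below every CtrlCre library. The log2 difference was -1.10 (SE 0.32), with an unadjusted p of 0.00225 and an adjusted p of 0.0647 (limma, Benjamini-Hochberg). The peak rested on 16 to 38 recovered counts per library. Its adjusted p was 0.0464 with limma-voom on those counts, the lowest over the alternatives, and 0.291 at the highest.

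Hist2h2bb on chromosome 3 shares its peak with the H3 gene Hist2h3b (chr3:96268439-96270235). It held 65, 53 and 98 in CtrlCre and 46, 47 and 37 in Cpt1bcKO libraries, which did not overlap. The log2 difference was -0.68 (SE 0.22), with an unadjusted p of 0.0055 and an adjusted p of 0.119 in limma. The size leaned on CtrlCre replicate 3, without which the log2 difference was -0.44. Without CtrlCre replicate 2 it was -0.87, with an adjusted p of 0.0242, with limma-voom the adjusted p was 0.0391, and over all alternatives it ran from 0.0242 to 0.468.

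The second peak assigned to Hist1h2bl covers the pair of Hist1h2bl and Hist1h2ai (chr13:21715272-21716910). It held 43, 49 and 41 in CtrlCre and 24, 23 and 36 in Cpt1bcKO libraries, again without overlap. The log2 difference was -0.69 (SE 0.26), with an unadjusted p of 0.0156 and an adjusted p of 0.223 in limma. Of its 75-base words 67.4% were unique. The first peak assigned to Hist1h2bl overlapped no histone gene and lay 4620 bases from its start, with means of 128 ± 9.02 in CtrlCre and 127 ± 6.51 in Cpt1bcKO CMs (SD, n = 3).

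The peak with the highest gain lies in intergenic sequence 4153 bases from Hist1h4h, to which it was assigned (chr13:23526127-23526897). It held 11, 28 and 32 in CtrlCre and 40, 44 and 42 in Cpt1bcKO libraries. The groups did not overlap, and CtrlCre replicate 1 stood lowest. The log2 difference was 0.93 (SE 0.33), with an unadjusted p of 0.00998 and an adjusted p of 0.17 in limma, and it fell to 0.47 without CtrlCre replicate 1. The peak over the Hist1h4h gene itself is that of Hist1h2af, with a log2 difference of 0.05 (SE 0.10).

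By the gene they were assigned to, all 9 H2B peaks had a log2 difference below 0, from -0.69 to -0.01, where 7337 of the 15039 tested peaks were below 0. Their summed normalized count was 889, 888 and 920 in CtrlCre and 810, 823 and 773 in Cpt1bcKO libraries. The means were 899 ± 18.2 and 802 ± 25.9 (SD, n = 3), and the genotypes did not overlap. Without Hist2h2bb and the Hist1h2bl and Hist1h2ai pair, the other 7 peaks summed to 781, 786 and 781 in CtrlCre and 740, 753 and 700 in Cpt1bcKO libraries. The family was singled out after its values were seen, and no test was made of the sum. Its limits follow the assigned names: 1 of the 9, the first Hist1h2bl peak, covered no histone gene. Each of the others also covered an H2A, H3 or H1 gene, so none of the 9 covered an H2B gene alone. By position, 13 peaks covered an H2B gene, of which 11 were below 0 and 2 above, the Hist1h2ah peak over Hist1h2bk (0.22) and the Hist1h3f peak over Hist1h2bh (0.05). For each of the other 7 families the summed values of the genotypes overlapped.

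**Figure D5:**
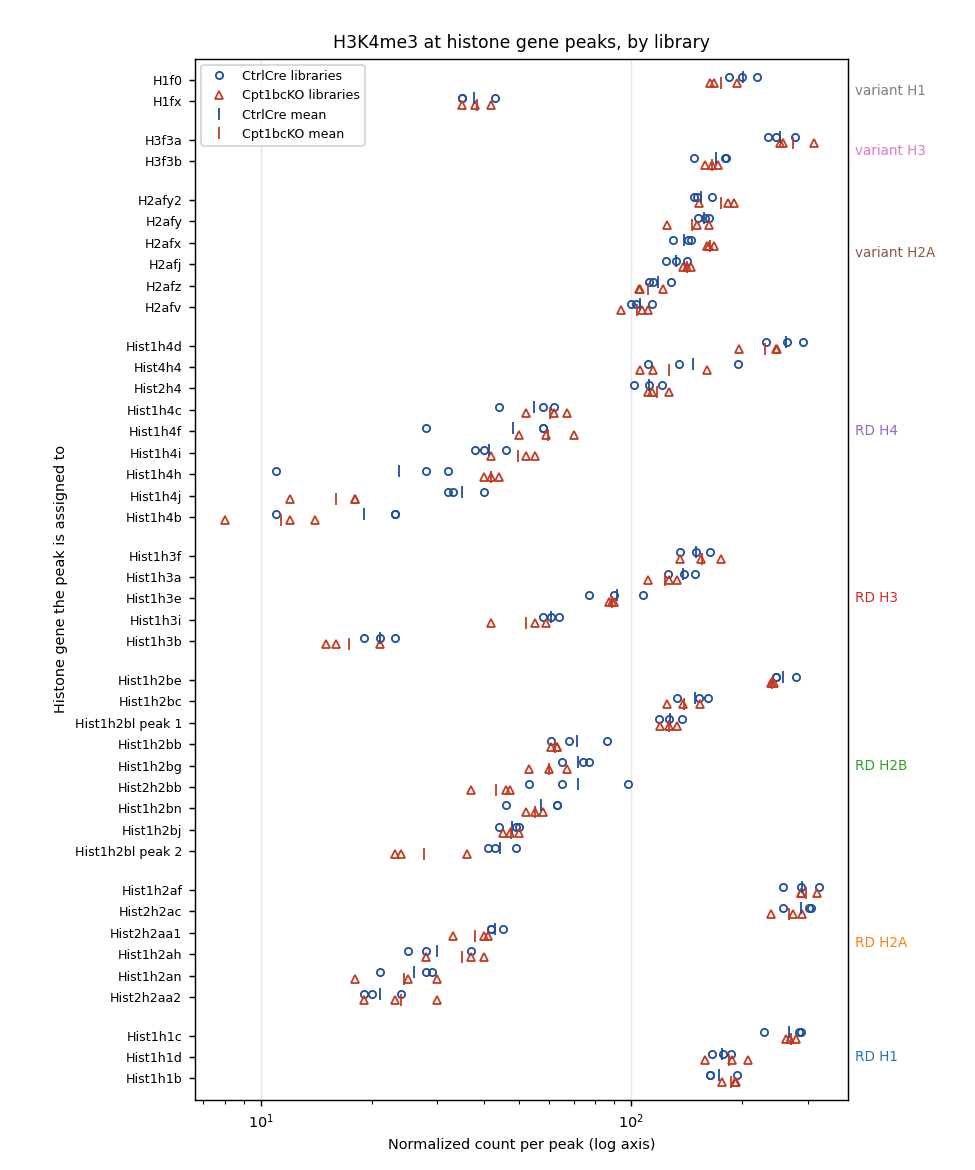
Normalized count of each of the 42 histone peaks (x axis, log scale) in the 3 CtrlCre libraries (circles) and the 3 Cpt1bcKO libraries (triangles), with group means as vertical ticks, grouped by family of the assigned gene (y axis). The genotypes separate at Hist1h4j (32 to 40 against 12 to 18), Hist2h2bb (53 to 98 against 37 to 47) and H2afx (130 to 145 against 160 to 168), and intermix at most other peaks.

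The replacement variants were close to equal between genotypes. The 10 peaks summed to 1469 ± 25.2 normalized counts in CtrlCre and 1493 ± 47.8 in Cpt1bcKO CMs (SD, n = 3). H2afx was the 1 replacement gene with an unadjusted p under 0.05 (chr9:44334643-44336094). It held 143, 130 and 145 in CtrlCre and 168, 162 and 160 in Cpt1bcKO libraries, which did not overlap. The log2 difference was 0.23 (SE 0.11), with an unadjusted p of 0.0463 and an adjusted p of 0.377 in limma.

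H3f3a and H3f3b are a pair of genes for 1 protein, the replacement H3 that is laid down outside replication. H3f3a held 247, 235 and 278 in CtrlCre and 312, 252 and 257 in Cpt1bcKO libraries. H3f3b held 181, 179 and 148 in CtrlCre and 158, 172 and 166 in Cpt1bcKO libraries. Both overlapped between genotypes, with log2 differences of 0.11 (SE 0.11) and -0.03 (SE 0.11). H3f3b had the highest density of all 42 peaks, 125.1 normalized counts per kb, and H3f3a had 94.6.

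H2afz and H2afv encode the 2 forms of H2A.Z, the variant that flanks active start sites. H2afz held 115, 112 and 128 in CtrlCre and 105, 122 and 106 in Cpt1bcKO libraries. H2afv held 100, 114 and 103 in CtrlCre and 111, 94 and 107 in Cpt1bcKO libraries. The groups overlapped at both, at log2 differences of -0.09 (SE 0.13) and -0.02 (SE 0.13), and the densities of 56.3 and 53.5 per kb were the lowest of the replacement H2A genes.

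The macroH2A genes H2afy and H2afy2, whose large H2A is linked to silent chromatin, differed in sign. H2afy held 152, 158 and 162 in CtrlCre and 162, 125 and 151 in Cpt1bcKO libraries. H2afy2 held 165, 151 and 148 in CtrlCre and 183, 153 and 190 in Cpt1bcKO libraries. With overlapping groups and log2 differences of -0.12 (SE 0.12) and 0.18 (SE 0.11), neither passed the test. H2afj held 124, 142 and 132 in CtrlCre and 142, 138 and 145 in Cpt1bcKO libraries, also overlapping, with a log2 difference of 0.10 (SE 0.11).

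H1f0, the linker histone of cells that have stopped dividing, had the widest replacement peak (3727 bases), which also covers the coding gene Gcat, so that its width and level are not those of H1f0 alone. It held 219, 184 and 199 in CtrlCre and 168, 193 and 163 in Cpt1bcKO libraries, with 1 Cpt1bcKO library inside the CtrlCre range. The log2 difference was -0.20 (SE 0.11), with an unadjusted p of 0.0786 and an adjusted p of 0.46 in limma. H1fx was the weakest replacement peak, with 35, 35 and 43 in CtrlCre and 35, 38 and 42 in Cpt1bcKO libraries. The 2 summed to 254, 219 and 242 in CtrlCre and 203, 231 and 205 in Cpt1bcKO libraries, so that 1 Cpt1bcKO library again lay inside the CtrlCre range.

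Genes that make, process and handle histones were read by the peaks assigned to them by name. A listed gene without such a peak may still lie under a peak assigned to a neighbour. Of 17 genes for histone gene transcription and pre-mRNA processing, 14 had a peak in the table, and 1 passed the test, which rose, beside 2.93% of all tested peaks that passed. Lsm11, a subunit of the U7 particle that helps cut histone pre-mRNA, held 99, 93 and 96 in CtrlCre and 149, 122 and 148 in Cpt1bcKO libraries. All 3 Cpt1bcKO libraries were above the CtrlCre range, and limma gave an adjusted p of 0.0197 at a log2 difference of 0.53 (SE 0.13). The call was lost without CtrlCre replicate 1 or 3 (adjusted p 0.0608 and 0.0521 in limma), without Cpt1bcKO replicate 1 or 3 (0.134 and 0.12) and after thinning all libraries to the shallowest (0.173). Its partner Lsm10 held 51, 42 and 61 in CtrlCre and 66, 64 and 58 in Cpt1bcKO libraries, a log2 difference of 0.30 (SE 0.20) that did not pass. Slbp, whose product binds the stem-loop, had 406 ± 26.5 in CtrlCre and 401 ± 7.23 in Cpt1bcKO CMs (SD, n = 3). The median log2 difference of the 14 was -0.03.

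Of 26 histone chaperone and variant exchange genes, 24 had a peak and none passed with limma or limma-voom. At an unadjusted p under 0.05, 1 of the 24 was higher, beside 5.84% of all tested peaks. That was Npm1, a nucleolar chaperone, with 152, 130 and 199 in CtrlCre and 205, 183 and 191 in Cpt1bcKO libraries, which overlapped (log2 difference 0.29, SE 0.13). Daxx, which deposits the replacement H3, followed with 199, 212 and 175 against 220, 240 and 212 and a log2 difference of 0.20 (SE 0.10). The median was 0.04.

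Of 25 genes of DNA replication and entry into S phase, 21 had a peak and none passed with limma or limma-voom. At the same unadjusted level 1 of the 21 was higher, again beside 5.84% of all tested peaks. E2f3, an activator of S phase genes, held 194, 186 and 182 in CtrlCre and 262, 223 and 237 in Cpt1bcKO libraries. The groups did not overlap, the log2 difference was 0.36 (SE 0.10) and the adjusted p was 0.0562 in limma. Cdt1, a licensing factor of replication origins, held 90, 77 and 85 in CtrlCre and 96, 97 and 116 in Cpt1bcKO libraries (log2 difference 0.29, SE 0.14). The median over the 21 was 0.16, beside 0.01 over all tested peaks, while that of the replication-dependent histone peaks was -0.07. These medians were not tested against each other.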

How the data were processed

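H3K4me3 ChIP–seq libraries of CtrlCre and Cpt1bcKO CM nuclei (3 each) were used. The 6 input libraries enter no comparison. Per the study's methods, the authors trimmed reads (Trimmomatic 0.39), kept uniquely aligning reads (STAR 2.6.1d, mm10), removed duplicates (Picard 2.21.7), called peaks with MUSIC against input, merged them and normalized values per union peak with DESeq2 1.26.0. The deposited library values are a score here, since they are normalized counts rounded to whole numbers. The authors' group means (signal) in the deposited table were used only to recover counts, and the gene body fraction was read only for peak position. The columns of the authors' own comparison (fold change, p and adjusted p) were not used.

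The original counts of all 15848 peaks were recovered from the rounded values together with the authors' group means. They were used for depth, thinning and limma-voom. Intervals cover the spread between libraries, and the floor of 3 counts covers counting error only. The test was limma 3.58.1 (R 4.3.3) on log2(value + 1) for 15039 peaks with a mean of at least 10, two-sided, with Benjamini-Hochberg adjustment. On simulated data at 2-fold, 87.0% of 200 changed peaks among 15039 were recovered. The simulation used 1 fixed dispersion that was not estimated from these libraries. Its changed peaks were drawn from peaks of all levels, so the share is not that for weak peaks. Fold changes on this scale understate those of low peaks.

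The naming rule for members uses no measured value, but it and the gene lists were set with earlier results of these data known. Values per library were given for peaks with an unadjusted p under 0.05, for the highest, lowest and widest peak of each class and for the replacement variants, and from other lists for genes that passed and the 2 with the smallest p. Gene models were GENCODE vM21 and promoters RefSeq GRCm38.p6. Alternatives are given in the closing section.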

Additional observations from a re-analysis of the deposited data

Results flagged for a closer look

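The 2 peaks below, over histone genes outside the naming rule, entered no comparison, and were listed because their signal was above the value of 3 counts in every library. A peak assigned to Trim17 covers Hist3h2a (chr11:58953784-58960605), with a mean of 199.2 normalized counts, 193, 200 and 193 in CtrlCre and 200, 213 and 196 in Cpt1bcKO libraries. A peak with no gene name covers Hist1h2bm (chr13:21721714-21722375), with a mean of 19.17, 24, 9 and 27 in CtrlCre and 18, 17 and 20 in Cpt1bcKO libraries. The genotypes overlapped at both.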

How the results depend on the processing

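Leaving out 1 library at a time, between 0 and 1 histone peaks passed, 3 to 6 had an unadjusted p under 0.05, the median log2 difference ran from -0.05 to -0.01, and 0 to 2 of the genes in the 3 other lists passed. The 1 histone peak was Hist2h2bb without CtrlCre replicate 2, and the 2 list genes without it were Lsm11 and Hjurp. With limma-voom on recovered counts 2 of 42 histone peaks passed, beside 503 of all 15039 tested peaks (log2 differences -1.10 for Hist1h4j and -0.79 for Hist2h2bb). With a mean of at least 50, 30 histone peaks were tested, 2 had an unadjusted p under 0.05, and 2 list genes passed, Lsm11 and E2f3. At that filter 338 of 10617 tested peaks passed. Thinned to the shallowest library, 0 list genes passed. Over the 30 peaks with at least 80% unique words, a choice made after seeing the data, 3 had an unadjusted p under 0.05. The 5 named peaks were chosen by their p in these data, and their genotypes did not overlap. Leaving out 1 library could therefore not change the sign of their log2 difference. No sign changed in the other alternatives that refitted them. With a mean of at least 50, only Hist2h2bb and H2afx of the 5 were tested.

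With the replicate block, as without it, 0 histone peaks and 1 list gene passed. At an unadjusted p under 0.05 there were 4 histone peaks, against 5 without the block. Of all tested peaks 370 passed, against 441 without the block. Whether the numbers pair the libraries is not known. The deviations of same-numbered libraries correlated at 0.08, -0.08 and 0.11, which neither shows nor excludes a pairing. The other alternatives (pseudocounts of 0.5 and 5, no filter, quantile normalization, median centring, 1 peak per gene, matching by gene ID) left the number of histone peaks that passed at 0. The depth of CtrlCre replicate 2 limits what weak peaks can show.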
